A study of Mus musculus with 4 samples.

Results

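GCyoung is the cluster of young granule cells among nuclei sorted from the dentate gyrus of adult mice, and its members are the 2176 nuclei that carry this name in the deposited table, of 14367 nuclei in all 13 clusters. The nuclei came from mice of both sexes with a tamoxifen-inducible Cre driver and the reporter CAG-floxStop-Sun1/sfGFP, aged 6 to 8 weeks and kept on a C57BL/6J background. In these mice tamoxifen starts the Cre recombinase in progenitors, and their progeny then carries a green fluorescent protein on the nuclear envelope by which nuclei were sorted. Tamoxifen lay 1, 2, 4 or 8 weeks back when left dentate gyri of 4 mice were pooled, and each pool gave 1 library of single-nucleus RNA sequencing, called w1, w2, w4 and w8 here. The groups therefore differ in the weeks since tamoxifen, share genotype and treatment, and have no replicate. The age of the mice at collection can rise with these weeks. A nucleus can be younger than the weeks since tamoxifen, since a labelled progenitor can divide after the label was induced.

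Granule cells are the glutamatergic principal neurons of the dentate gyrus, and the adult rodent brain adds new ones to the circuit. A newborn granule cell first migrates, grows an axon towards CA3 and expresses the microtubule protein doublecortin (Dcx). It then receives glutamatergic synapses, becomes highly excitable for a time, and replaces its immature genes with those of a mature granule cell, such as the calcium buffer calbindin (Calb1). The clusters GCimm2 and GCmat1 stand before and after GCyoung in the deposited pseudo-time, a rank of nuclei along this path, and GCmat2 is a second cluster of mature granule cells that was given no pseudo-time.

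No result below carries a p-value. The clusters were made from the expression of the same nuclei, and each week is a single pool. Levels are counts per 1000000 UMIs (counted molecules) of the same nuclei, or CPM, and every interval is an exact 95% interval that covers counting error only. GCyoung and another cluster were compared inside a library, in w4 and in w8, and a gene counts as higher or lower when it was at least 1.5-fold so in both libraries.

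The promoters of 3 of the 5 genes proposed as markers of GCyoung have an entry in RefSeq, while Kirrel3 and Calb1 have none in the table used. They are shown because they belong to the genes by which the cluster is recognised. Each window is the 250 bases before 1 RefSeq start on GRCm38.p6, which for Cpne4 and Pcdh15 lies inside the longer gene given by GENCODE. The windows lie at chr9:10904776-10905025 on the minus strand for Cntn5, chr9:104569405-104569654 on the plus strand for Cpne4 and chr10:73821617-73821866 on the plus strand for Pcdh15. Capitals mark matches to any of 4 motifs searched on both strands, which were the TATA box TATAAA, the cAMP response element TGACGTCA and the E-boxes CAGATG and also CAGCTG.
Cntn5: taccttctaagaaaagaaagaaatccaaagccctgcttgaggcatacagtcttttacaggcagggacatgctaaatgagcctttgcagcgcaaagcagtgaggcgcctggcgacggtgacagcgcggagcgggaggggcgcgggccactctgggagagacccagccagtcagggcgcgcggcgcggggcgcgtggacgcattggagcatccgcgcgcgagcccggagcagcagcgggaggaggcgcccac
Cpne4: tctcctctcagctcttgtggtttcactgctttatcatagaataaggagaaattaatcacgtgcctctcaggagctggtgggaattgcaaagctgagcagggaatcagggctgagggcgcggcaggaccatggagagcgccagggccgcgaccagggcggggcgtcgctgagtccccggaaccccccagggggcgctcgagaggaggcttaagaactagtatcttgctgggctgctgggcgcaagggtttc
Pcdh15: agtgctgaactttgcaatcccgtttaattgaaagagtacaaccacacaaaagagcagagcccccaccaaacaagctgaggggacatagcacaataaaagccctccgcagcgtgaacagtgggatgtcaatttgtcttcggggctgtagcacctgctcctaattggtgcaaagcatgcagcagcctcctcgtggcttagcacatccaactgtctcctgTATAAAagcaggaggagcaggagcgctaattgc
The Pcdh15 window holds TATAAA 33 bases before the start, and the windows of Cntn5 and Cpne4 hold none of the 4 motifs. TATAAA occurs in 12.97% of 27025 RefSeq promoters of the same length, and in 10.99% of the 191 promoters found for genes that were highest in GCyoung, while the shares were 5.49% and 5.72% for genes compared with GCimm2 and GCmat1. A match describes these letters and no more.

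GCyoung nuclei were nearly all from w4. They made up 1979 of 3831 nuclei of w4, a share of 51.7% (95% Clopper-Pearson interval 50.1 to 53.3), and 188 of 3426 nuclei of w8, a share of 5.49% (4.75 to 6.303). The w2 library held 9 of them and w1 held 0 of 2867, which allows a share of up to 0.105% by the limit of 3 counts and 0.129% by the Clopper-Pearson interval. The sums behind the levels were 15789336 UMIs in w4, 1434526 in w8 and 98727 in w2, so a w8 level is less precise and the w2 levels are given only in passing. A GCyoung nucleus had a median of 7458 UMIs and 2700 detected genes. Their pseudo-time ran from 20.9 to 31.4 with a median of 27.2, between the medians of GCimm2 at 19.9 and GCmat1 at 29.96.

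**Figure D1:**
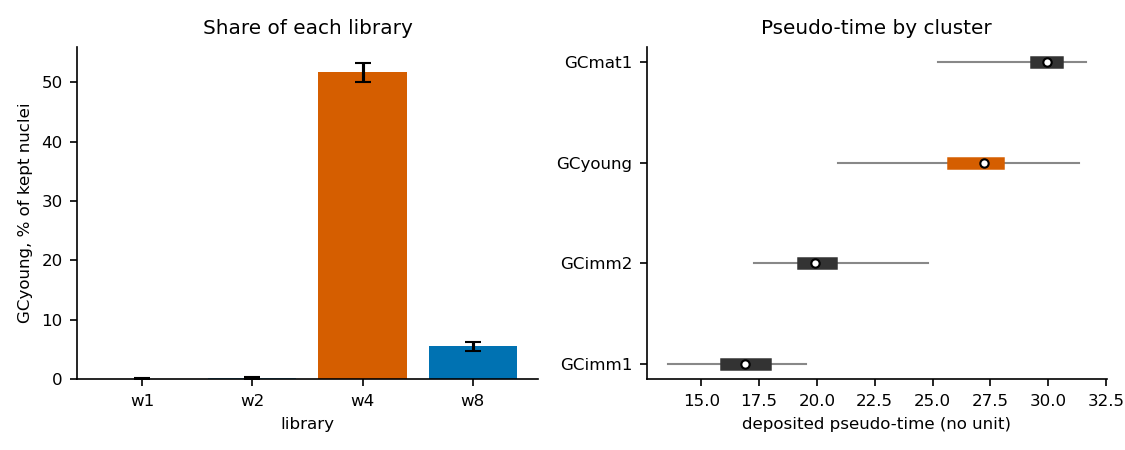
The left panel plots GCyoung as a percentage of the kept nuclei of each library, with 95% Clopper-Pearson intervals, and the right panel plots the deposited pseudo-time of 4 granule cell clusters, with the median as a dot, the middle 50% of nuclei as a thick bar and the full range as a line. The share was 51.7% in w4 and at most 5.49% in the other libraries, and the middle of GCyoung lay between those of GCimm2 and GCmat1, while the ranges overlapped.

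The sex of the nuclei moved with the library. By the UMIs of X- and Y-linked genes, 84.4% of the GCyoung nuclei of w4 with a call were female, against 18.5% in w8, and the whole libraries had 82.0% and 13.7%. These are shares of kept nuclei. The authors had left out a set of w4 nuclei, most of them called male, which raises the female share of w4. Left-out barcodes of w4 with a profile closest to GCyoung had 54.1% female calls. Inside a library the clusters compared were closer in sex, with 90.8% female nuclei in GCmat1 of w4 and 13.6% in w8, and 73.0% in GCimm2 of w4 and 2 of 20 called nuclei in w8. The part of sex in the results was not tested, except where values of 1 sex are given. Of all barcode sequences 27 occurred in more than 1 library, and 8 GCyoung nuclei carried such a sequence.

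Markers of other cells were low in GCyoung. The 5 oligodendrocyte markers summed to 71.0 CPM, against 14882 in the oligodendrocyte cluster, and the 5 astrocyte markers to 33.7 CPM, against 3422 in astrocytes. The 4 markers of oligodendrocyte precursors summed to 7.39 CPM, against 2839 in that cluster. Interneuron markers (7 genes) read 57.8 CPM, microglial markers (4 genes) 37.1 and cycling progenitor markers (4 genes) 13.5, and the CA pyramidal, endothelial, Cajal-Retzius and leptomeningeal lists gave between 0.346 and 12.99 CPM.

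Of the 5 proposed markers a single gene, Cntn5, was highest in GCyoung. Cntn5 (chromosome 9, 9660891 to 10904775, minus strand) encodes contactin-5, a neuronal adhesion molecule anchored in the membrane. It read 2074 CPM in w4 (2051 to 2096), 2097 in w8 (2023 to 2173) and 2127 in the 9 nuclei of w2. Over all libraries its level was 2076 CPM in GCyoung, 1425 in GCmat1, 960 in GCmat2 and 906 in GCimm2. With both sexes together, the weeks thus gave GCyoung the same Cntn5 level within counting error, above every other granule cell cluster. In female nuclei alone it was 1.16-fold (1.07 to 1.26) as high in w8, and in male nuclei 1.04-fold (0.990 to 1.10). In GCimm2 of the same libraries, however, Cntn5 stood at 1327 CPM in w4 and 1552 in w8, and the fold of 1.35 in w8 was under 1.5.

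Kirrel3, an immunoglobulin-family adhesion molecule of synapses (chromosome 9, 34485894 to 35036716), read 2253 CPM in GCyoung of w4 and 2388 in w8. Its pooled level was 2259 CPM, against 425 in GCimm2 and 2188 in GCmat1, while GCmat2 at 3494 and oligodendrocytes at 2941 were higher. Cpne4, a calcium-dependent membrane-binding protein (chromosome 9, 104547286 to 105034544), read 31.5 CPM in GCimm2, 156 in GCyoung and 191 in GCmat1 of w4, and 26.6, 187 and 312 in w8. Calb1 (chromosome 4, 15881264 to 15908064) read 22.0, 115 and 141 CPM in w4 and 6.66, 86.4 and 119.9 in w8, in the same order. The GCimm2 values of w8 rest on 4 UMIs of Cpne4 and 1 of Calb1. Both genes are therefore on in GCyoung and in GCmat1, and separate GCyoung from the cluster before it.

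Pcdh15 ran the other way. This protocadherin (chromosome 10, 73099342 to 74649737), known from the tip links of inner ear hair cells, read 2084 CPM in GCimm2, 481 in GCyoung and 185 in GCmat1 of w4, and 2198, 509 and 93.3 in w8. Over all libraries pooled it was highest in oligodendrocyte precursors at 4751 CPM. The label young granule cell thus met a combination of levels, with Kirrel3 and Calb1 within 1.5-fold of GCmat1 in both libraries, Cpne4 between GCimm2 and GCmat1, and Pcdh15 still partly on. The transcription factor Prox1, which marks granule cells, read 461 CPM in GCyoung of w4, against 820 in GCimm2 and 369.6 in GCmat1, and 495 against 906 and 314 in w8.

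**Figure D2:**
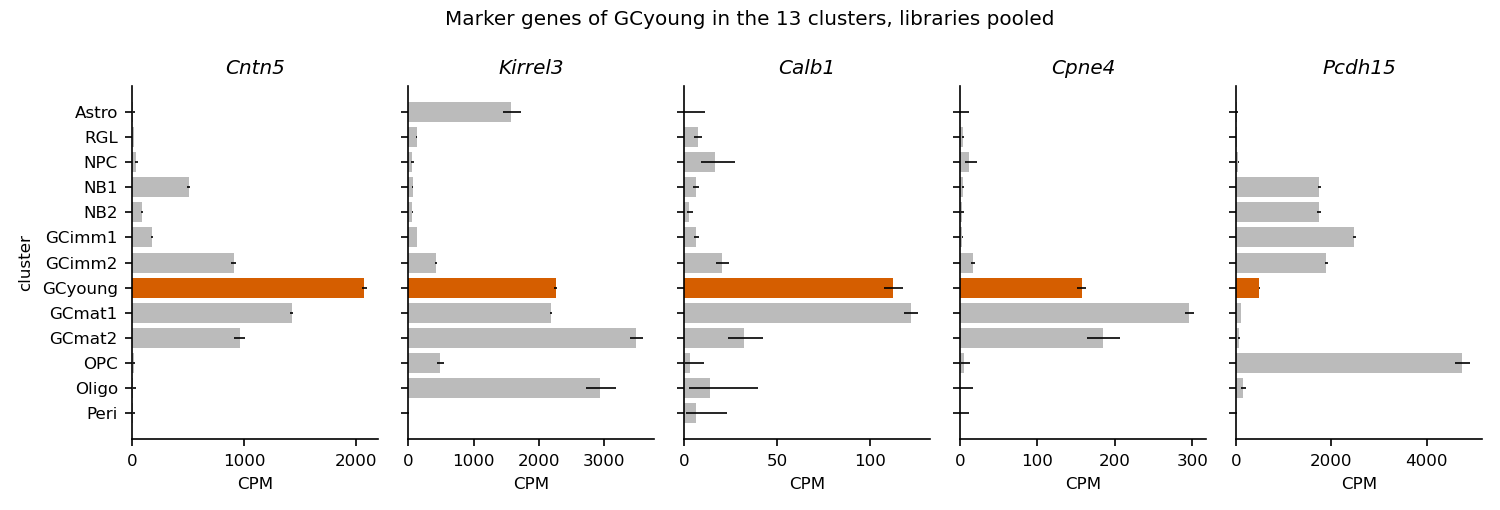
Bars give the level in CPM of the 5 proposed markers in the 13 clusters, all libraries pooled, with exact Poisson 95% intervals and GCyoung in orange. Only Cntn5 peaked in GCyoung, at 2076 CPM, and Pcdh15 was at 486 CPM there against 1890 in GCimm2 and 4751 in oligodendrocyte precursors.

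Against GCimm2, the cluster before it, GCyoung had 513 genes at least 1.5-fold higher in both libraries, 6.8% of 7544 genes compared, and 900 lower, 11.9%. The typical gene was itself a little lower, with a median log2 fold of -0.16 in w4 and -0.17 in w8. When this shift was removed by median-ratio factors the counts were 698 higher and 569 lower, and with TMM factors 787 and 484, so the split between higher and lower follows the scaling. The GCimm2 sum of w8 holds 28 nuclei and 150112 UMIs, and its folds are wide.

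The 3 genes highest against GCimm2 were near zero in that cluster. Csgalnact1, an enzyme that starts chondroitin sulfate chains, read 150 CPM in GCyoung of w4 against 2.16 in GCimm2, a fold of 69.7 (29.8 to 215), and 156 CPM in w8 against 0 of 150112 UMIs, which is at least 7.81-fold higher when the 0 is set to 3 counts. Chst9, a carbohydrate sulfotransferase, read 112 against 2.16 CPM in w4 and 129 against 0 in w8, at least 6.45-fold higher. Slit1, a secreted axon guidance ligand of Robo receptors, read 147 against 4.32 CPM and 128 against 0, at least 6.42-fold higher. All 3 were thus present in both weeks in GCyoung and near the floor in GCimm2.

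Fam19a1, a secreted chemokine-like protein, was among the more abundant of these genes, at 1252 CPM in GCyoung of w4 and 1490 in w8, against 41.0 and 13.3 in GCimm2. Kcnip4, an auxiliary subunit of A-type potassium channels, stood at 9026 and 7718 CPM against 655 and 473, a fold of 13.8 (13.1 to 14.5) in w4 and 16.3 (12.9 to 20.9) in w8. Tanc1, a postsynaptic scaffold protein, stood at 314 and 310 CPM against 14.2 and 6.66. Smad3, which carries TGF-beta signals to the nucleus, stood at 55.7 and 71.1 CPM against 3.45 and 0. Ipcef1, Mamld1 and Plekha2 completed the 10 highest genes, with 31.8 to 41.1 CPM in GCyoung of w4 and 1.73 to 3.02 in GCimm2.

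Among the lowest genes, Lypd6, a small Ly6-family protein, read 1.46 CPM in GCyoung of w4 and 1.39 in w8, against 98.4 and 120 in GCimm2, 67.5-fold (43.9 to 109) and 86.0-fold (20.6 to 764) lower. Sema3c, a secreted semaphorin, read 14.0 and 18.1 CPM against 535 and 540. Pappa2, a protease of IGF-binding proteins, read 5.57 and 7.67 CPM against 130 and 147. Sv2b, a synaptic vesicle glycoprotein, read 6.33 and 3.49 CPM against 105 and 140. The CB1 cannabinoid receptor gene Cnr1 read 5.89 and 9.06 CPM against 65.2 and 79.9. Fnbp1l, Luzp2, Fam163a, Angpt1 and Cntnap4 were the other genes of the lowest 10, between 7.41- and 22.8-fold lower in w4.

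All 9 compared genes of the immature neuron list were lower in GCyoung than in GCimm2, with a median log2 fold of -2.27 in w4 and -2.05 in w8, and 8 were so under either other scaling. They were not gone. Dcx read 81.1 CPM in w4 and 72.5 in w8 against 227 in both weeks of GCimm2, 2.80-fold (2.52 to 3.10) and 3.12-fold (2.06 to 4.64) lower. Sox11, a transcription factor of immature neurons, read 61.0 and 64.8 CPM against 278 and 266. Igfbpl1 read 50.9 and 38.3 CPM against 321 and 173, and Stmn1, a protein that destabilises microtubules, 12.4 and 11.2 against 94.1 and 66.6.

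Of the 16 compared genes of the mature granule cell list 12 were higher than in GCimm2 and 0 lower, with a median log2 fold of 1.58 and 1.65. This list and the immature neuron list include genes that the study named from these same nuclei, so their counts are description only. Grin2a, the GluN2A subunit of NMDA receptors, read 3024 CPM in w4 and 3101 in w8, against 959 and 933. Slc17a7, the vesicular glutamate transporter VGLUT1, read 157 and 179 CPM against 66.5 and 73.3. Camk2a, the alpha subunit of calcium/calmodulin-dependent kinase II, read 1159 and 1102 CPM against 540 in both. Car10, Inpp4b and Ntng1 were 23.5-, 23.0- and 11.5-fold higher in w4, each with under 20 UMIs in GCimm2.

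Each list count against GCimm2 is to be read beside the 6.8% of all genes that were higher and the 11.9% that were lower. Of 30 axon growth and guidance genes 16 were lower and 4 higher, and 13 or 15 lower under the other scalings. Dcc, the netrin receptor, read 1946 CPM in w4 and 2526 in w8 against 7069 and 6615. The neuropilins Nrp1 and Nrp2, coreceptors of semaphorins, were 2.77- and 3.23-fold lower in w4, and the growth cone genes Gap43, Dpysl3 and Dpysl5 were 4.79- to 6.16-fold lower. The 4 higher genes were Slit1, Robo2 and the netrin receptors Unc5c and Unc5d. Robo2 read 976 and 1039 CPM against 375 and 293, and its relative Robo1 339 and 390 against 823 and 1033. Unc5c read 107 and 136 CPM against 13.4 and 0. Within the same families, then, some receptors were higher in GCyoung and others lower.

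Of 35 potassium and HCN channel genes 12 were higher and 4 lower than in GCimm2, against 6.8% and 11.9% of all genes, so that the lower count is near the general share. The list holds 45 genes, and the minimum in w8 can leave out genes that are low in GCyoung. Besides Kcnip4, its partner Kcnd2, a pore subunit of A-type channels, read 4828 and 4805 CPM against 2257 and 2518. Kcnj3 and Kcnj6, pore subunits of G-protein-gated inward rectifiers, were 1.85- and 1.62-fold higher in w4. Kcnq5, Kcnn2 and Kcnk2 were among the 4 lower genes, and Kcnq5, a pore subunit of M-type channels, read 26.0 and 29.3 CPM against 83.3 and 167. Of 13 sodium channel genes 1 was higher and 2 lower, and of 17 calcium channel genes 2 were higher and 1 lower, counts that are near the shares over all genes.

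Receptor and adhesion genes are set beside the same shares, 6.8% higher and 11.9% lower. Of 20 glutamate receptor genes 4 were higher, among them Gria3, Grin2a and Grm3, and Gria4 was lower. Of 12 GABA receptor genes 4 were higher and Gabrg3 was lower. Gabra4, a GABA-A receptor subunit, read 273 CPM in w4 and 257 in w8 against 92.3 and 79.9. In the synaptic adhesion list 9 genes were higher and 14 lower of 46. Among the higher genes Lrrtm4, a postsynaptic partner of glypicans, read 11670 and 11036 against 6712 and 6662.

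Against 6.8% higher and 11.9% lower of all genes, presynaptic release genes were higher in 7 and lower in 4 of 34, and postsynaptic scaffold genes higher in 5 and lower in 3 of 28, so that the lower counts are near the general share. Plppr1 and Plppr3, membrane proteins of the postsynaptic list, were among its 3 lower genes. The postsynaptic balance was not stable, with 9 and 13 higher under median-ratio and TMM factors and 3 lower in both, and 3 higher and 6 lower in male nuclei alone. In the calcium handling list 9 of 23 were higher and 3 lower. Ryr2, a calcium release channel of the endoplasmic reticulum, read 1876 and 1939 CPM against 782 and 939, and Slc8a1, a sodium-calcium exchanger, was lower at 515 and 703 against 1470 and 1486.

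Of 21 late transcription factors 10 were higher and 5 lower, beside 6.8% and 11.9% of all genes, and of 10 immature transcription factors 0 were higher and 6 lower, or 3 lower under either other scaling. Both lists include genes that the study named for these stages, so their counts are description only. Rora, a nuclear receptor, read 364 and 418 CPM against 94.1 and 113. Nr3c1, the glucocorticoid receptor, read 70.4 CPM in w4 against 10.4, and Foxo1, a target of insulin signalling, 102 against 19.4. Zbtb20, a hippocampal zinc finger repressor, stayed among the most abundant genes at 5503 CPM in w4 against 10390, and was in this list among the 5 lower genes. Genes higher than in GCimm2 had a median length of 104 kb and lower genes 58.7 kb, against 41.9 kb over all genes compared, and the part of length in these counts was not tested.

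Against GCmat1, the cluster after it, fewer genes passed the fold, 466 higher in GCyoung (4.03% of 11557 compared) and 226 lower (1.96%). The GCmat1 sums held 3606156 UMIs in w4 and 25323445 in w8, against 2317325 and 150112 in GCimm2. A call rests on the fold alone, so counting error in a shallow sum can add calls. The part of depth in the difference between the 2 comparisons was not tested. The scalings gave 393 and 417 higher and 280 and 270 lower. With nuclei of 1 sex the counts were 282 higher and 157 lower for females and 173 and 113 for males, over fewer genes compared. On the mean of the deposited log2 values per nucleus, a scale that compresses low genes, 4 and 9 genes passed the same fold.

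Several genes higher in GCyoung than in GCmat1 were the same genes that were lower than in GCimm2, 148 in all. Fam163a read 26.4 CPM in GCyoung of w4 and 13.2 in w8 against 1.11 and 0.434 in GCmat1, 23.8-fold (9.23 to 87.8) and 30.5-fold (13.8 to 70.9) higher. Kctd8, an auxiliary subunit of GABA-B receptors, read 34.2 and 27.2 CPM against 3.61 and 2.69. Mndal, an interferon-inducible gene, read 19.9 and 51.6 CPM against 1.39 and 1.66, and its relative Ifi203-ps 7.41 and 15.3 against 0.555 and 1.82. These 2 genes belong to a family of near-identical copies, so reads could be lost or split among them. In w4 the Mndal level was 36.5 CPM in male and 15.8 in female GCyoung nuclei, and GCmat2 held 81.8 CPM in w4 and 78.5 in w8. The collagens Col15a1 and Col11a1, with Fxyd5, Tmem196, Plekhg1 and the noncoding Gm26905, completed the 10 highest.

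The 10 lowest genes against GCmat1 were between 3.39- and 6.44-fold lower in w4. Akain1, an inhibitor of the anchoring of protein kinase A, read 6.33 CPM in w4 and 4.88 in w8 against 40.8 and 32.8, 6.44-fold (4.96 to 8.38) and 6.72-fold (3.25 to 16.8) lower. Rhbdl3, a rhomboid-family membrane protein, read 3.10 and 2.09 CPM against 15.8 and 16.4. Itgav, the integrin alpha V chain, read 2.66 CPM against 10.8 in w4 and 0.697 CPM against 19.3 in w8, the former from 1 UMI. Chst9 read 112 and 129 CPM against 390 and 452, 3.47-fold (3.23 to 3.72) and 3.51-fold (3.03 to 4.08) lower. Chst9 and Slit1, which were near zero in GCimm2, therefore reached a middle level in GCyoung. Ptprt, Wnt9a, Hs3st4, Epha10, Mitf and 4930448N21Rik were the other genes of the lowest 10.

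Beside the 4.03% higher and 1.96% lower of all genes, counts of the maturation lists are description only. These lists include genes that the study named from these same nuclei, so more calls than the general share test nothing. Of 10 immature neuron genes 5 were still higher in GCyoung than in GCmat1, and they were Dcx, Sox11, Igfbpl1, Rgs6 and Adamts18. On mean log2 values 0 of 10 passed the fold. Dcx read 81.1 and 72.5 CPM against 42.2 and 29.9, a fold of 1.92 (1.63 to 2.29) in w4 and 2.43 (1.96 to 2.98) in w8. Adamts18, a secreted metalloprotease, read 63.7 and 99.0 CPM against 9.43 and 14.4, the widest gap of the list in w4. Of 16 mature granule cell genes 4 were lower, which were Chst9, Rapgef5, Inpp4b and Ntng1, and 0 were higher. On mean log2 values 2 of 15 were lower. Ntng1 read 74.2 CPM against 112 in w4 and 108 against 427 in w8, and its GCmat1 level differed more between the weeks than its GCyoung level.

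Counts of channel and receptor genes against GCmat1 are read against the 4.03% of all genes that were higher and the 1.96% that were lower, by which short lists hold few calls or none. No gene of 12 GABA receptor genes and none of 13 sodium channel genes passed 1.5-fold in both libraries, with list medians between -0.08 and 0.04 on the log2 scale. Of 39 potassium and HCN channel genes 3 were higher and 1 lower, of 21 glutamate receptor genes 1 and 1, and of 36 presynaptic genes 3 and 0. In the axon growth and guidance list 5 of 31 genes were higher, Sema3c, Sema3e, Sema6d, Dpysl3 and Gap43, and Slit1 and Unc5d were lower. Gap43 read 11.9 and 10.5 CPM against 2.50 and 1.30. Of 30 genes of the postsynaptic scaffold list 3 were higher and 0 lower, and they were Lin7a, Plppr1 and Plppr3. Plppr1 and Plppr3 are phospholipid phosphatase-related membrane proteins, so the count is not one of scaffold proteins alone. Plppr1 read 437 and 511 CPM against 150 and 177.

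Transcription factors of the late list were lower in 4 of 22 and higher in 0, beside 1.96% and 4.03% of all genes, and lower in 6 under median-ratio or TMM factors and in 0 of 19 on mean log2 values. The 4 were Bcl6, Etv1 and the nuclear receptors Esrrg and Thrb, the last for thyroid hormone. The late list includes genes that the study named for late stages, so its counts are description only. Bcl6, a repressor, read 12.4 and 16.7 CPM against 58.2 and 43.0. Esrrg and Thrb were lower than in GCimm2 too. In all, 11 genes were lower than in both neighbours, among them the calcium release channel Itpr1 and Pcdh7, and 6 were higher than in both, which were Gpr39, Nwd2, Sema5b, Slc37a1, Tesc and Gm42456. All of the latter but Nwd2 read at most 6.66 CPM in GCimm2 of w8, the level of 1 UMI. By comparison, 43 genes were higher than in GCimm2 and lower than in GCmat1, and 148 the reverse. A further 6005 genes compared with both neighbours passed the fold against neither. Against GCimm2 only, 739 genes were lower and 464 higher, and against GCmat1 only, 39 were lower and 87 higher. Both folds of a gene share the same GCyoung counts. Whether the 11 and the 6 genes differ from the overlap of unrelated calls was not tested.

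**Figure D3:**
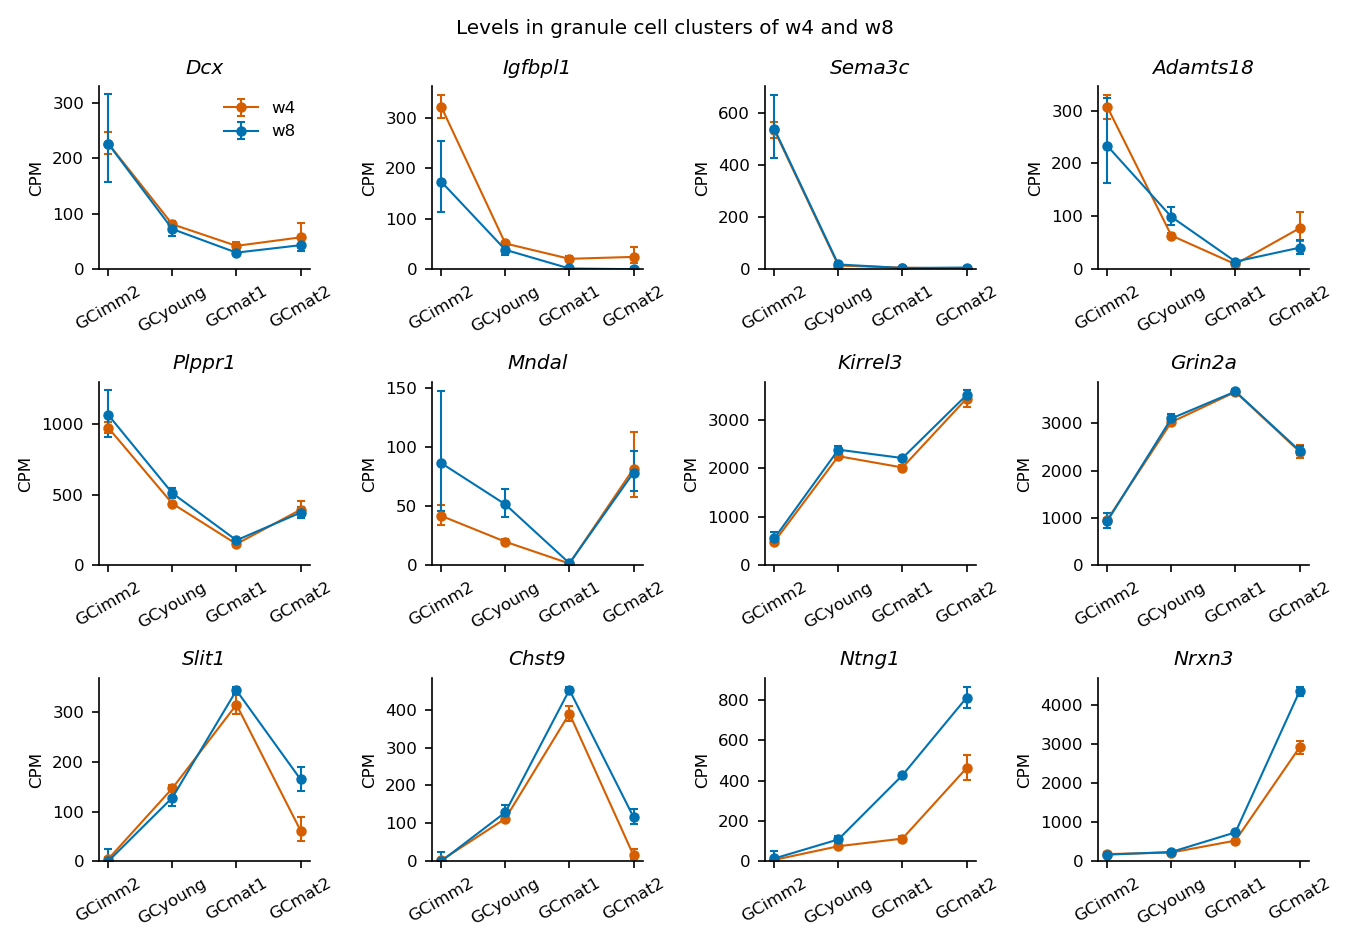
Points give the level in CPM of 12 genes in 4 granule cell clusters of w4 (orange) and w8 (blue) with exact Poisson 95% intervals, and lines join clusters of 1 library in the order of the axis. GCyoung sat between GCimm2 and GCmat1 for Dcx, Plppr1, Slit1 and Chst9, near the GCmat1 level for Kirrel3 and near the GCimm2 level for Nrxn3. Of the clusters shown, Nrxn3 was highest in GCmat2 of both libraries, and Mndal was highest in GCmat2 of w4 and in GCimm2 of w8, at 86.6 CPM.

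The position of GCyoung between its neighbours can be put on a log2 scale of CPM on which the GCimm2 level of w4 is 0% of the way and the GCmat1 level of w4 100%. The GCmat1 nuclei of w4 had a median pseudo-time of 28.6, against 30.1 in w8. The 100% point is therefore an early part of GCmat1, and the percentages would not hold for GCmat1 as a whole. Over 549 genes at least 2-fold higher in GCmat1 than in GCimm2, GCyoung stood at a median of 82.3%, and over 1172 genes at least 2-fold lower, at 70.5%. Of these genes 64 and 154 were under 50%, and 87 and 122 were past 100%. Genes near the GCmat1 level of w4 included Slc17a7 at 98.3%, Tenm1 at 99.7% and Car10 at 102%, with Kcnip4 at 96.1%.

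Genes that lagged were named from the fixed lists. Nrxn3, a presynaptic neurexin, read 181 CPM in GCimm2, 220 in GCyoung and 526 in GCmat1, which is 18.4% of the way on the log2 scale. From early to late pseudo-time within GCyoung of w4, in the 5 bins described below, it read 303, 291, 215, 130 and 157 CPM. Late GCyoung nuclei were thus further from the GCmat1 level of Nrxn3 than early ones. Cntn3, a contactin, stood at -12.2%, below its GCimm2 level, with 25.8 CPM in GCyoung and 67.1 in GCmat1. Ryr1, a calcium release channel, stood at 21.9% and the T-type calcium channel Cacna1h at 23.8%. On the lower side Lin7a, a scaffold protein of synapses, read 247, 297 and 121 CPM along the clusters, and Tenm2, an adhesion teneurin, 7129, 5395 and 2414. Lin7a was thus not lower in GCyoung than in GCimm2, and the Tenm2 fold over GCmat1 was 2.23 in w4 and 1.41 in w8.

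Against GCmat2, the smaller cluster of mature granule cells with 60 nuclei in w4 and 149 in w8, GCyoung had 537 genes higher, 6.07% of 8840 compared, and 403 lower, 4.56%. With median-ratio factors the counts were 480 higher and 453 lower, and with TMM factors 459 and 476, so this split follows the scaling too. The furthest apart were genes nearly absent from GCyoung. Pappa, a protease of IGF-binding proteins, had 5 UMIs in GCyoung of w4 and 0 in w8, against 106 and 124 CPM in GCmat2, 335-fold (134 to 1080) lower in w4 and at least 59.1-fold lower in w8. Sorcs3, a sorting receptor of the sortilin family, read 6.90 and 4.88 CPM against 758 and 900. Nrxn3 read 220 and 235 CPM against 2904 and 4336, so in w4 it stood further from GCmat2 than from GCmat1, which read 526 CPM.

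Adcy8, a calcium-stimulated adenylyl cyclase, read 13.2 and 18.8 CPM in GCyoung against 223 and 381 in GCmat2, and Rasgrp1, an activator of Ras, 4.50 and 6.97 against 68.5 and 116. In the list of genes induced late by neuronal activity 7 of 10 were lower and 0 higher, beside 4.56% and 6.07% of all genes, with a median log2 fold of -1.14 in w4 and -1.26 in w8. They included Bdnf, a neurotrophin, at 116 and 88.5 CPM against 248 and 186, and Pcsk1, a prohormone convertase, at 10.5 and 4.18 against 90.6 and 58.7. The study used activity-linked genes, Sorcs3 and Bdnf among them, to classify GCmat2 in these data, so the count of 7 is description only. Against GCmat1 the same list gave 1 higher and 2 lower of 10, beside 4.03% and 1.96% of all genes, with 3 lower under median-ratio or TMM factors. Against GCimm2 it gave 3 higher and 1 lower of 8, beside 6.8% and 11.9%, with 4 higher under both factors.

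Genes higher in GCyoung than in GCmat2 included Ror1, a Wnt5a receptor, at 69.9 and 47.4 CPM against 4.42 and 1.81, and Trpc5, a cation channel, at 215 and 200 CPM against 17.7 and 19.9, 12.2-fold (6.16 to 28.2) and 10.1-fold (6.53 to 16.3) higher. Dsp, the gene for desmoplakin, read 38.0 and 25.8 CPM against 2.21 and 1.81, the latter from 1 and 2 UMIs. Il1r1, Tex15, Ano4, Mdga1, Abcb10, Fbn2 and Gm13883 were the others of the highest 10, each with at most 5 UMIs in GCmat2 of either library. Calb1 was higher in GCyoung as well, at 115 and 86.4 CPM against 53.0 and 23.5, and so were 3 of 13 sodium channel genes, beside 6.07% of all genes. They were Scn9a, Scn2b and Scn3b, the first pair from 2 and 3 UMIs in GCmat2 of w4, and 2 of 13 passed with median-ratio or TMM factors and 0 of 12 on mean log2 values.

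Over all libraries pooled, 276 of 9795 genes with at least 100 UMIs in GCyoung had their highest level of the 13 clusters there, and for 111 of them the counting interval of the ratio to the next cluster lay above 1. The minimum was set on GCyoung, where these genes are high. In 10 genes the ratio was at least 1.5-fold. The next cluster was GCmat1 for 131, GCmat2 for 58 and GCimm2 for 36. Pth2r, a receptor of the parathyroid hormone family, had the largest ratio with 5.77 CPM, 3.60-fold (1.97 to 7.20) above GCimm2, although on mean log2 values per nucleus it was not highest in GCyoung. It read 5.89 CPM in w4 and 4.88 in w8, and 3.59% of the w4 nuclei (2.81 to 4.50) had a UMI of it, against 1.48% of GCimm2 nuclei of w4 (0.544 to 3.19), 0.248% of GCmat1 nuclei of w4 (0.00628 to 1.37) and 0.216% of radial glia-like nuclei (0.0446 to 0.631), whose median depth was 4091 UMIs against 7480. Tmem114 followed with 8.72 CPM, 3.10-fold (1.96 to 5.16) above GCimm2. Tmem126b and Gm42864 came next, and after them Myrfl with 12.4 CPM, 1.79-fold (1.31 to 2.47) above its next cluster.

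Among more abundant genes Trhde, a peptidase that degrades thyrotropin-releasing hormone, stood at 176 CPM in GCyoung, 1.60-fold (1.52 to 1.68) above GCmat1, with 176 in w4 and 169 in w8. Dagla, an enzyme that makes the endocannabinoid 2-arachidonoylglycerol, stood at 239 CPM, 1.42-fold (1.36 to 1.48) above GCmat1. When clusters were compared within w4 alone, 151 genes were highest in GCyoung, and 73 of these were among the 276. Of the 15 named genes Cntn5, Dagla, Gm42864 and Gm12094 were highest within w4, while Pth2r had 93 UMIs there and was under the minimum of 100.

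Some leaders of the pooled ranking followed the library and not the cluster. Col14a1 read 50.03 CPM in GCyoung of w4 and 0 in w8, at least 23.9-fold lower, but it also read 52.2 CPM in GCimm2 and 51.0 in GCmat1 of w4, and 0.599 in GCimm2 of w2. Tmem126b read 99.6 CPM in GCyoung of w4 and 10.5 in w8, with 83.3 in GCimm2 and 110 in GCmat1 of w4. Crybg1 read 25.0 CPM in w4 and 0 in w8, with 26.3 and 29.7 in GCimm2 and GCmat1 of w4. GCyoung, which is drawn to 90.9% from w4, came out highest for these genes in the pool of libraries, and none of them was highest in it within w4.

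**Figure D4:**
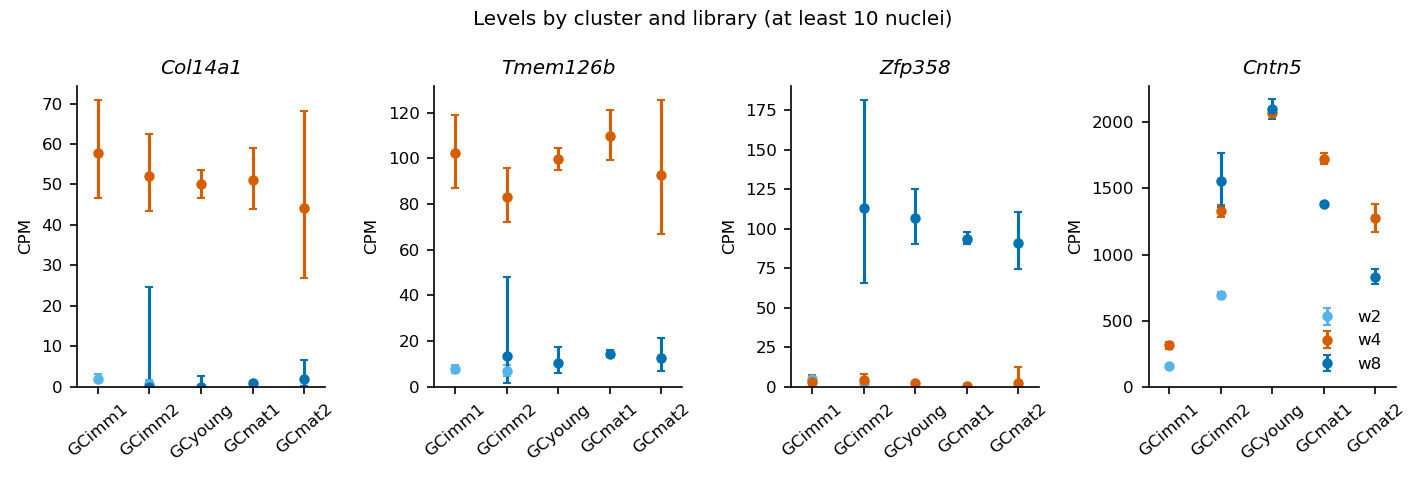
Points give the level in CPM of 4 genes in 5 granule cell clusters of w2, w4 and w8, for sums with at least 10 nuclei, with exact Poisson 95% intervals. Col14a1 and Tmem126b were high in every cluster shown of w4 and Zfp358 in every cluster shown of w8, whereas Cntn5 was highest in GCyoung in w4 and in w8.

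GCyoung nuclei of w8 and of w4 can be set beside each other, but the week, the age of the mice and the pool cannot be told apart. The share of each sex differed too. Of 11367 genes compared, 669 were at least 1.5-fold higher in w8, 5.89%, and 1059 lower, 9.32%, and of these 288 and 455 had a counting interval clear of 1. The 5 markers were within 1.5-fold with both sexes together. Kirrel3 was 1.06-fold (1.02 to 1.10) and Cntn5 1.01-fold (0.974 to 1.05) as high in w8, Pcdh15 1.06-fold (0.979 to 1.14), Cpne4 1.20-fold (1.05 to 1.36) and Calb1 0.752-fold (0.621 to 0.902). Cpne4, however, was 1.64-fold (1.44 to 1.88) higher in female than in male GCyoung nuclei of w4, and in male nuclei alone it was 1.69-fold (1.39 to 2.05) as high in w8, with 172 CPM against 101. In male nuclei Calb1 was 0.674-fold (0.525 to 0.858) as high, and the other markers lay between 0.992- and 1.04-fold. In female nuclei, of which w8 held 31, Pcdh15 was 1.35-fold (1.14 to 1.58) and Cpne4 1.35-fold (1.005 to 1.77) as high in w8. Cntn5 was 1.16-fold (1.07 to 1.26), Kirrel3 1.12-fold (1.03 to 1.22) and Calb1 0.852-fold (0.538 to 1.28) as high in these nuclei. Dcx read 72.5 CPM in w8 and 81.1 in w4, within counting error.

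Several of the genes furthest apart between the weeks were Y-linked or differed likewise in GCmat1. Most other genes did not pass the 1.5-fold limit there in the same direction. Of genes with an interval clear of 1 that were also compared in GCmat1, 97 of 285 higher and 167 of 434 lower were so there too. In GCmat1 7 and 8 of them passed the fold the other way. A gene short of the fold in GCmat1 can still differ there, and the share of all GCmat1 genes past it is not given. The counts therefore do not show which differences are particular to GCyoung. Zfp358 read 107 CPM in GCyoung of w8 and 2.09 in w4, 51.0-fold (34.8 to 76.8) higher, with 93.8 and 0.555 CPM in GCmat1 of the same libraries. The Y-linked genes Eif2s3y, Kdm5d, Uty and Ddx3y were 3.67- to 4.97-fold higher in w8, and the noncoding Gm15414 4.13-fold, with 4.74 CPM in w8 and 2.22 in w4 of GCmat1. Col14a1, Crybg1 and Ttr, the carrier of thyroid hormone in cerebrospinal fluid, were at the other end, with Ttr at 2.09 CPM in w8 and 50.7 in w4, and at 2.41 and 41.6 CPM in GCmat1. Frem2, Mrpl17 and Etv5 had 0 UMIs in w8 and 74 to 84 in w4. Etv5, the smallest of these, was at least 2.24-fold lower, while in GCmat1 it read 2.53 CPM in w8 and 2.50 in w4.

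The sexes can be set apart in part. Between male and female GCyoung nuclei of w4, 282 of 11133 genes were at least 1.5-fold higher in females and 121 in males with an interval clear of 1. With male nuclei alone, 338 genes were higher in w8 and 489 lower, and of the genes counted before that could be compared, 109 of 166 higher and 245 of 310 lower were so again. With female nuclei alone, 335 of 528 higher and 503 of 978 lower were so again, with 31 such nuclei in w8.

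Along the deposited pseudo-time the 1979 GCyoung nuclei of w4 were cut into 5 bins of 395 or 396 nuclei. This order was computed from the same expression values, so the levels describe it and test nothing. Between the latest and the earliest bin 684 of 8996 genes were at least 1.5-fold higher, 7.6%, and 1082 lower, 12%. The median UMIs per nucleus lay between 7192 and 7974 in the bins and the share of female nuclei between 76.1% and 90.8%.

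Genes that were high late included Chst9, at 15.6, 29.3, 87.2, 148 and 293 CPM from the earliest to the latest bin. Anxa11, a calcium-dependent phospholipid-binding annexin, went from 1.63 to 45.2 CPM, 27.8-fold (11.6 to 87.0), and Arsj, Svil, Mamld1 and Fhad1 were between 18.0- and 19.4-fold higher in the latest bin. Slit1 read 47.8 CPM in the earliest and 272 in the latest bin and Grin2a 1993 and 3643. The markers Calb1, at 108 and 132 CPM, and Kirrel3, at 2254 and 2052, differed little across the cluster.

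The genes furthest apart in the early direction were nearly absent late. Myo16, an unconventional myosin of neurons, read 101, 18.8, 6.34, 2.18 and 0.997 CPM across the bins. Kctd8 read 136 CPM in the earliest and 3.33 in the latest bin, Plekhg1 21.8 and 0.332, and Tmem200a, Vav2 and Ankfn1 had 64 to 111 UMIs in the earliest and 0 in the latest bin. Pth2r read 22.1 CPM in the earliest bin, 5.67 in the next and 0.624 to 0.665 in the others, so it belonged to the early edge of GCyoung. Other genes were lower late but still present, with Dcx at 137 CPM early and 50.9 late, Pcdh15 991 and 225, and Cntn5 2788 and 1692. Ntng1, a netrin-related adhesion molecule, was low in the earliest bin at 30.3 CPM, read 89.0, 87.2 and 95.1 in the middle and 66.8 in the latest.

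**Figure D5:**
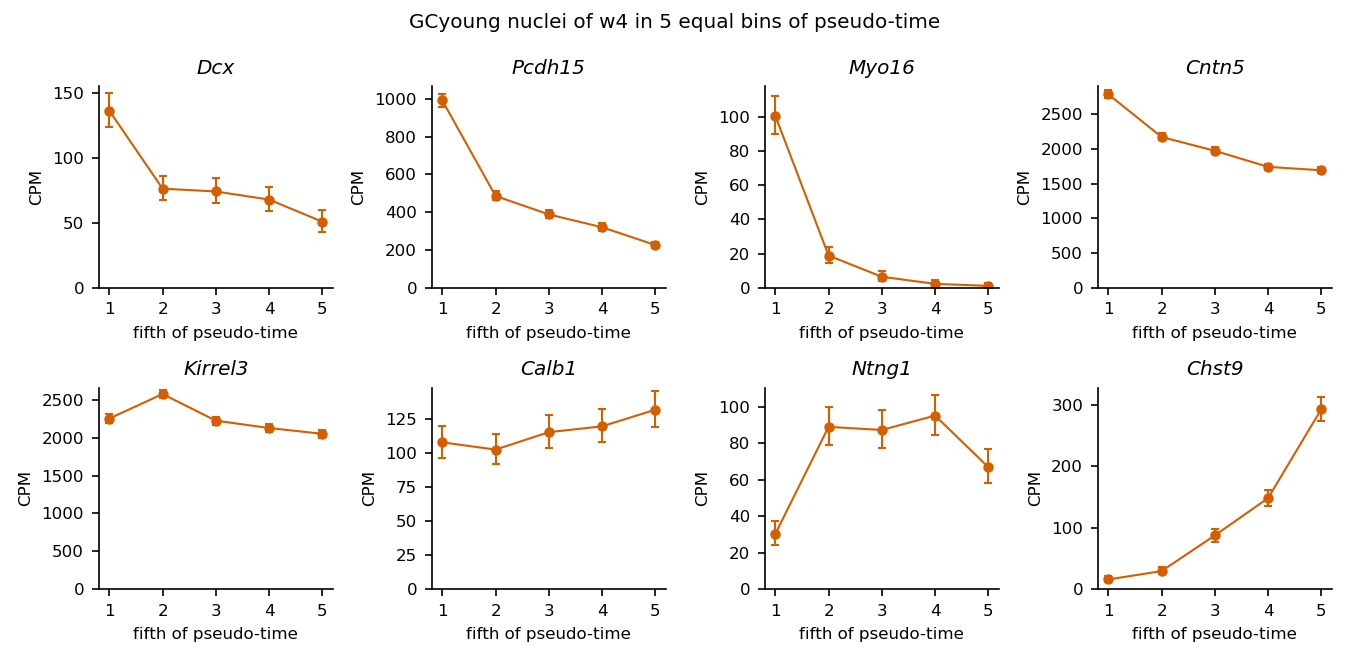
Points give the level in CPM of 8 genes in 5 equal bins of the deposited pseudo-time of GCyoung nuclei of w4, from early (1) to late (5), with exact Poisson 95% intervals joined by lines. Myo16 was near 0 from the third bin on, Chst9 reached 293 CPM in the latest, and Calb1 and Kirrel3 varied little.

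Dcx and Calb1 UMIs were counted together in single nuclei. In w4, 22.0% of GCyoung nuclei had a UMI of both, 18.2% of Dcx alone, 29.2% of Calb1 alone and 30.6% of neither. Calb1 was seen in 51.2% of these nuclei (49.0 to 53.4) and in 6.67% of oligodendrocytes (1.40 to 18.3), whose median depth was 4801 UMIs against 7480. Dcx was seen in 40.3% (38.1 to 42.5), against 65.8% of GCimm2 and 26.1% of GCmat1 nuclei of w4 and 4.44% of oligodendrocytes. With each nucleus thinned to 2000 UMIs the shares in GCyoung were 18.2% for Calb1 and 15.9% for Dcx, against 35.0% for Dcx in GCimm2 and 6.95% in GCmat1, and 3.08% of the nuclei then had both and 69.0% neither. Whether the 2 genes were seen together more often than apart was not tested. Depth therefore sets the size of these shares, while GCyoung lay between its neighbours for Dcx at both depths.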

How the data were processed

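Single nuclei were profiled by 3′ droplet sequencing. The authors aligned the reads to mm10 (GRCm38) with STARsolo 2.7.4a and deposited raw UMI counts over exons and introns per barcode, without multi-mapped reads. They removed barcodes under 1000 features, doublets, nuclei of low quality and a further set of w4 nuclei, most of them called male, and took sex and stress genes out before clustering. The authors also deposited log2 values (count over size factor, plus 1), cluster names and pseudo-time, and these are taken as given. Of 45706 features 45143 matched a GENCODE M21 symbol by ID, and coordinates are from that annotation.

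Counts of kept nuclei were summed per cluster and library with Python 3.11.15, numpy 2.4.6, scipy 1.17.1 and pandas 2.3.3 and divided by the summed UMIs. Kept libraries held 13227971 to 28595331 UMIs. A gene was compared with at least 50 UMIs over both clusters in w4 and 20 in w8. A sum of 0 was set to 3 counts for a lower bound on a fold. A nucleus was called female or male by whether its Xist and Tsix UMIs or its Ddx3y, Uty and Eif2s3y UMIs were more. edgeR 4.0.16 in R 4.3.3 gave TMM factors and no test. Reads can be shared between near-identical or overlapping genes, which affects their levels.

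Named genes were the 5 proposed markers, the 10 highest and 10 lowest of each cluster comparison by the smaller of the w4 and w8 folds, the 15 with the largest ratio to the next cluster, the 6 highest and 6 lowest between weeks and between the first and last bin, members of fixed gene lists, and genes the study names. The members and lists were chosen with earlier results of these data known. On simulated counts with 200 changed genes, the procedure recovered 154 and called 17 others against GCimm2 (7707 genes compared), 178 and 52 against GCmat1 (11592), and 182 and 132 against GCmat2 (8957). The simulated counts were Poisson draws, and every changed gene was set well past the 1.5-fold limit. Recovery near that limit, and variation between nuclei, mice or pools, was not simulated. The Cre driver and a few genes are not reported here.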

Additional observations from a re-analysis of the deposited data

Results flagged for a closer look

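Some barcodes outside the deposited cluster table had summed profiles most like GCyoung. In w4 they were 336 of 1628 such barcodes, with a median of 9561 UMIs and 54.1% female calls, and in w8 they were 5 of 268. Adding them would give GCyoung 42.4% of the barcodes used in w4 and 5.22% in w8. The closest profile is a rough guide, since it returned 91.4% of the kept GCyoung nuclei of w4 and 67.6% of those of w8 to GCyoung. What these barcodes hold was not tested.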

How the results depend on the processing

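Each week is 1 pool, so animals are not resolved, and week, age of the mice and pool cannot be told apart. The w8 levels rest on 188 GCyoung and 28 GCimm2 nuclei. No paired analysis was possible because the labels give no replicate numbers and no result comes from a test. Values with nuclei of 1 sex were added after seeing the data, and sums with fewer than 10 nuclei gave none.

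Counts are given as higher and lower genes. Against GCimm2 they were 569 lower with median-ratio factors, 787 and 484 with TMM factors, 311 and 298 with a minimum of 200 and 80 UMIs, 3678 lower with no minimum, 261 and 315 at a fold of 2, 335 and 351 thinned to 2000 UMIs, 149 and 49 on mean log2 values, and 1091 and 3405 with libraries pooled. Against GCmat1 they were 216 and 122 with the higher minimum, 1787 and 570 with none, 168 and 75 at a fold of 2, 298 and 150 thinned, 4 and 9 on mean log2 values, 1326 and 1063 pooled, 282 higher in female nuclei, and 173 and 113 in male nuclei. Against GCmat2 they were 217 and 184 with the higher minimum, 1040 and 1809 with none, 191 and 163 at a fold of 2, 296 and 262 thinned, 41 and 46 on mean log2 values, and 1890 and 1084 pooled.

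With w4 or w8 left out, a gene has to pass in the other library alone, and the counts were 1161 to 1394 higher and 2139 to 2847 lower against GCimm2, 1026 to 2068 and 461 to 1760 against GCmat1, and 1325 to 2078 and 1007 to 1683 against GCmat2. Genes highest in GCyoung were 151 within w4 and 560 on mean log2 values. The w4 share was 42.4% with left-out barcodes given their closest profile. Between w8 and w4 there were 183 and 428 genes with a minimum of 200 UMIs, 2192 and 1819 in female nuclei, of which w8 held 31, and 338 and 489 in male nuclei. Late against early pseudo-time gave 419 and 561 genes thinned to 2000 UMIs. Apart from the filters, thinning and smaller sums, which change the genes compared, the cause was not tested. For single named genes, the direction turned for Tenm4 against GCmat1 with libraries pooled, at a log2 fold of -0.054. On mean log2 values 98 named-gene values against GCimm2, 63 against GCmat1 and 74 against GCmat2 kept the direction and were under the fold, and 54, 7 and 26 stayed past it. With TMM factors 15, 3 and 1 values against GCimm2, GCmat2 and GCmat1 were under the fold, and 152, 102 and 73 past it. A gene that passed in both libraries passes by construction when 1 library is left out, while a higher minimum takes genes out of the comparison.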
